A study of Homo sapiens with 6 samples.

Results

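The 60 genes described here encode the machinery that attaches, checks, separates and divides chromosomes in mitosis. They were taken by name: a row of the deposited expression table was a member if its gene symbol was on a list of 60 mitotic genes, and all 60 names were found among 60605 rows. The rule uses names and no measured value. The cells were HepG2, a liver cancer line described as epithelial by its cell type label and as mesenchymal by the growth protocol, kept in DMEM with serum. Of the 6 libraries, 3 came from cells infected with lentivirus for sh-circFTO, a hairpin against the circular RNA circFTO, and 3 from cells infected with lentivirus for a control hairpin (sh-control). Both groups therefore carry a virus and a hairpin, and both are labelled wild type. The series title names deprivation of serine and glycine, but no sample label names such a medium. The sequence and number of hairpins are not given, nor whether replicates were grown apart, so p-values here measure the spread between libraries, which may be technical.

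A chromosome is pulled apart at its centromere, where nucleosomes that carry the histone variant CENP-A hold a constitutive centromere-associated network of CENP proteins. On that base the outer kinetochore (KNL1, the Mis12 complex and the Ndc80 complex) binds microtubules, and the spindle checkpoint kinases and the Mad and Bub proteins delay anaphase until every kinetochore is attached. The anaphase-promoting complex (APC/C), switched on by CDC20, then marks securin for destruction and frees separase. Many of these genes are transcribed mainly in G2 and mitosis, and their RNA is low in resting cells.

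The sh-circFTO libraries held 13361333 to 15809084 counts and the sh-control libraries 14932270 to 16178079. All 10 hepatocyte markers were expressed. Their summed level was 16115 to 16267 CPM (counts scaled to a fixed library size) in sh-circFTO and 27761 to 27995 CPM in sh-control. The markers did not change alike. As shares of the sh-control level, ALB was at 86.7%, APOA1 at 86.1%, AFP at 84.3%, TF at 65.2% and SERPINA1 at 51.5%. HNF4A was at 44.4%, AHSG at 42.6%, TTR at 38.7% and APOB at 33.3%, whereas FGB was higher, at 165%. Mitochondrial transcripts took 6.47% to 6.75% of counts in sh-circFTO and 7.72% to 8.11% in sh-control. Summed fibroblast markers (0 of 6 expressed, LUM at 0) were at 2.95 to 5.41 CPM in sh-circFTO and 4.25 to 5.87 CPM in sh-control. PTPRC, the marker shared by white blood cells, had no count in any library. Endothelial markers (1 of 4, PECAM1; KDR at 0) were at 11.6 to 14.6 CPM in sh-circFTO and 5.80 to 10.3 CPM in sh-control. The part of the hepatocyte, mitochondrial and endothelial differences in the results below was not tested.

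Levels below are FPKM, reads per kilobase of exon scaled to library size, with TMM scaling added so that libraries can be compared. A fold change is given as log2 of sh-circFTO over sh-control, with its standard error (SE). A gene is said to have risen or fallen when edgeR's quasi-likelihood test gave a Benjamini-Hochberg adjusted p under 0.05 over all tested genes.

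The mitotic genes were lower in sh-circFTO almost throughout. A gene was tested when 3 or more libraries had an FPKM of 1 or higher, and the 57 of the 60 genes that were tested had that level in all 6 libraries. In sh-circFTO 52 of the 57 fell, 1 rose and 4 did not pass the test, against a background in which 34.8% of all 12865 tested genes fell and 34.9% rose (69.7% in either direction). Of the 52, 30 fell by at least 2-fold. The 3 sh-circFTO libraries lay below the 3 sh-control libraries for 55 of the 57 genes, where 35.7% of all tested genes did so, and above them for 1 (MIS12), where 35.8% did so. CENPT was the gene whose groups overlapped. The median log2 fold change was -1.03 over the 57 genes and 0.0012 over all tested genes, which puts the middle mitotic gene at 49.0% of its sh-control level. With library totals as the only scaling, all genes together shifted by 0.15 (5700 or 44.3% higher and 3471 or 27% lower, against 4490 and 4479), the median of the mitotic genes was -0.88, and 52 still fell. In this bulk measurement fewer dividing cells and less RNA per dividing cell cannot be told apart.

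Relative to the sh-control mean, the median gene stood at -1.01, -1.02 and -1.01 on the log2 scale in the sh-circFTO libraries and at -0.01, -0.03 and 0.02 in the sh-control libraries. Together the 60 genes took 0.313%, 0.316% and 0.320% of all counts in sh-circFTO and 0.558%, 0.555% and 0.556% in sh-control. Among the 57 genes the size of the change bore little relation to abundance (Spearman rho = -0.06 between mean level and log2 fold change, a description over genes of the same 6 libraries). The count of 52 lower was also reached when each library was left out in turn, against 33.1%, 32.8% and 32.9% of all genes without sh-circFTO replicates 1, 2 and 3, and 33.7%, 34% and 34% without sh-control replicates 1, 2 and 3.

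**Figure D1:**
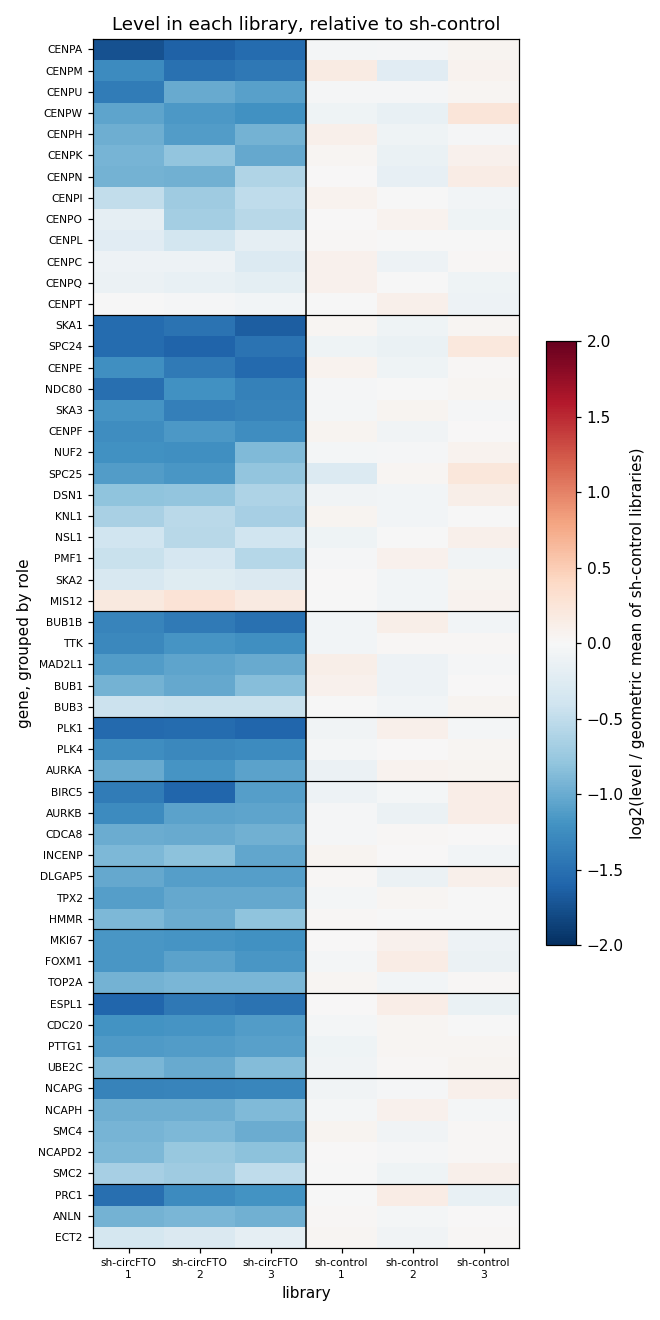
Level of each of the 57 tested mitotic genes in each library, as log2 of its level over the geometric mean of the 3 sh-control libraries; rows are grouped by role, with black lines between groups, and columns are the 3 sh-circFTO and the 3 sh-control libraries. The sh-circFTO columns are blue (lower) in nearly every row, with the pale rows including CENPL, CENPC, CENPQ and CENPT, and MIS12 is the row above 0 in all 3 sh-circFTO libraries.

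Promoter sequences are shown for 8 of the genes because members of this list fell together. In the study of cell cycle genes, the letters TTTGAA are known as the core of the cell cycle genes homology region (CHR), an element of many late cell cycle promoters that is bound by the MuvB core of the DREAM and B-MYB complexes, and CCAAT is the box bound by NF-Y. RefSeq promoter windows on GRCh38.p14, of 250 bases before and 50 after a start site, were found for 49 of the 60 genes (59 windows, since 8 genes have several). The 150 bases before the start are printed 5′ to 3′ on the gene's strand, with TTTGAA and CCAAT, or their opposite-strand forms TTCAAA and ATTGG, in capitals. The first 6 genes fell and hold TTTGAA, and CENPT and CENPQ did not pass the test and do not hold it. All 8 were picked on motif and change together, so the sequences shown cannot tell whether the 2 are related. Motif and change do not always go together. CENPC holds TTTGAA in its window and did not pass the test, and 14 of the 17 tested genes without TTTGAA in the window fell.
PLK1 (chr16:23678739-23678888, plus strand): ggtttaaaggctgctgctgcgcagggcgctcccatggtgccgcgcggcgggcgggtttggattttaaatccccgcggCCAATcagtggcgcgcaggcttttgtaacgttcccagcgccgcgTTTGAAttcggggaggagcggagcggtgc
CDC20 (chr1:43358831-43358980, plus strand): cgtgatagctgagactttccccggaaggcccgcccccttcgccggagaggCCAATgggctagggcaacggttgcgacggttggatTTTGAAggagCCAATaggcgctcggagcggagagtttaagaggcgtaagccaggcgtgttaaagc
CENPA (chr2:26785906-26786055, plus strand): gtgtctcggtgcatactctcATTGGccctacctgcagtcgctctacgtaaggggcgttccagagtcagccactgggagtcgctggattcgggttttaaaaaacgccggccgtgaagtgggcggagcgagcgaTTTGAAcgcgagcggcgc
BUB1B (chr15:40160919-40161068, plus strand): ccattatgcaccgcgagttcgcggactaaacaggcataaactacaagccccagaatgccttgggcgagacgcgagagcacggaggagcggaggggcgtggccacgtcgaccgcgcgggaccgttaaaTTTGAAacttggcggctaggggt
NCAPG (chr4:17810829-17810978, plus strand): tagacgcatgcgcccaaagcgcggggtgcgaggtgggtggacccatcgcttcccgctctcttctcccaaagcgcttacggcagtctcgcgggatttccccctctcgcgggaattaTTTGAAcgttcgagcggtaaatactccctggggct
CDCA8 (chr1:37692366-37692515, plus strand): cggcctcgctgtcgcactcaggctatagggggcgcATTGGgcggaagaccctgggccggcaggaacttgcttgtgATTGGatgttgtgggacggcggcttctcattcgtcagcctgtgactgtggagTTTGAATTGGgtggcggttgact
CENPT (chr16:67847694-67847843, minus strand): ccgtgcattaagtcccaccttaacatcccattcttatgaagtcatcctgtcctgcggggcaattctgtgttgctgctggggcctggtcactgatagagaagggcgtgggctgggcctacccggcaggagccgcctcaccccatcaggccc
CENPQ (chr6:49463220-49463369, plus strand): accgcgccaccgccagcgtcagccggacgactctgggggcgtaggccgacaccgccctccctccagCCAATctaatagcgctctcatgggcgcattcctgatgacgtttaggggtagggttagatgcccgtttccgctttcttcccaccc

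In these promoters TTTGAA begins 29 bases before the start of PLK1, 65 before CDC20, 18 before CENPA, 23 before BUB1B, 35 before NCAPG and 23 before CDCA8, where it shares an A with an inverted CCAAT box. Searched on both strands, TTTGAA was found in 31 of the 59 windows of the mitotic genes (52.5%) and in 15.2% of all 35116 windows of the table. CCAAT was found in 36 of the 59 windows (61.0%) and in 34.6% of all windows. In the whole window 28 of the 29 tested genes that hold TTTGAA fell (median -1.08, range -1.63 to -0.16), and 14 of the 17 without it (median -0.92, range -1.54 to 0.22). When the search was narrowed to 50 bases on either side of the start, a limit set after the positions had been seen, TTTGAA was in 25 of 59 windows (42.4%) and in 4.62% of all windows. The 24 tested genes with TTTGAA in that narrow stretch all fell, with a median of -1.14 and a range of -1.63 to -0.27. Of the 22 tested genes without it 18 fell, with a median of -0.92 and a range of -1.54 to 0.22. Those 22 include CENPC, which did not pass the test, and CDC20, NCAPD2, SMC4 and TOP2A, which fell. These genes hold TTTGAA elsewhere in the window, so it is the narrower limit that leaves CENPC out of the holders. The 2 ranges overlap widely, and SPC24 (-1.54) and CENPE (-1.40) have no TTTGAA in their windows. Among 375 other tested genes with TTTGAA near the start, 43.5% fell and 31.7% rose, against 35.6% and 38.5% of the 8701 without it. A match is a run of letters and was not tested as a binding site.

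**Figure D2:**
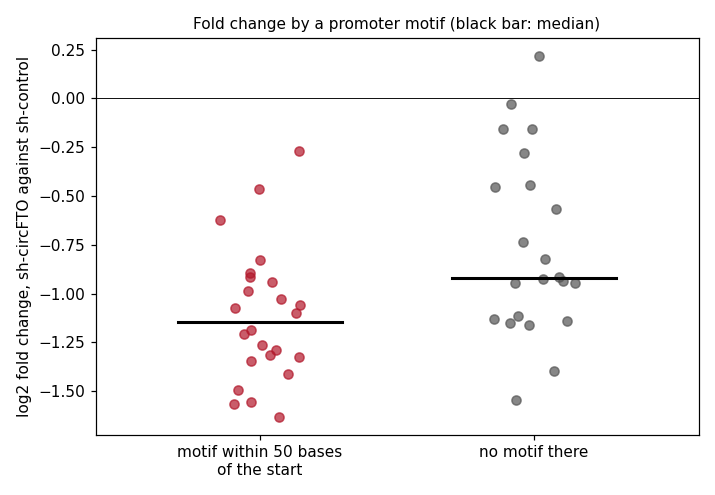
Log2 fold change (sh-circFTO over sh-control) of the 46 tested mitotic genes with a promoter window, for the 24 with TTTGAA within 50 bases of the start (left) and the 22 without (right); each point is a gene and black bars are medians. The medians are -1.14 and -0.92 and the point clouds overlap, with the 4 genes that did not fall (CENPC, CENPQ, CENPT and MIS12) on the right. CENPC, CDC20, NCAPD2, SMC4 and TOP2A are on the right although they hold TTTGAA elsewhere in the window.

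At the centromere, 9 of 13 tested genes fell, none rose, and the median was -0.83. CENPA, the histone H3 variant that marks the centromere, had the most negative fold change of the 57 tested genes. It fell to 7.53, 8.15 and 8.60 FPKM in sh-circFTO, against 24.5, 24.6 and 26.2 FPKM in sh-control. The groups were far apart (log2 fold change -1.63, SE 0.0818, edgeR adjusted p = 9.53e-17). The table places CENPA at chr2:26764289-26801067 on the plus strand, coordinates that fit GRCh38, where it overlaps SLC35F6 on the same strand, so its counts are uncertain. In the CENP-HIKM subcomplex of the constitutive network all 4 genes fell: CENPM (-1.40), CENPH (-1.01), CENPK (-0.92) and CENPI (-0.57). In the other subcomplexes some partners passed the test and some did not. CENPN, which reads the CENP-A nucleosome, fell (-0.83), while its partner CENPL was at 1.86, 1.69 and 1.94 FPKM in sh-circFTO, against 2.22, 2.18 and 2.17 FPKM in sh-control. The CENPL libraries did not overlap, but the difference missed the threshold (-0.26, SE 0.127, edgeR adjusted p = 0.0728).

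CENPU (-1.15) and CENPO (-0.46) fell, whereas CENPQ, of the same CENP-OPQUR subcomplex, had 11.6, 11.3 and 11.0 FPKM in sh-circFTO and 13.4, 12.5 and 11.9 FPKM in sh-control (-0.15, SE 0.0917, edgeR adjusted p = 0.134). CENPW fell (-1.14), but CENPT, with which it forms a histone-fold pair, had 7.70, 7.58 and 7.46 FPKM in sh-circFTO and 7.67, 8.31 and 7.23 FPKM in sh-control. The CENPT groups overlapped (-0.03, SE 0.0692, edgeR adjusted p = 0.704), and its value was 0.11 (adjusted p = 0.143) when library totals were the only scaling. CENPT overlaps NUTF2 and THAP11 on the other strand, and whether reads were counted by strand is not given. CENPC, the scaffold that bridges the CENP-A nucleosome to the outer kinetochore, had 2.59, 2.59 and 2.32 FPKM in sh-circFTO and 2.96, 2.60 and 2.82 FPKM in sh-control (-0.16, SE 0.0911, edgeR adjusted p = 0.121). Ratios within these pairs were read per library. The log2 ratio of CENPN to CENPL was 0.63 to 0.91 in sh-circFTO and 1.18 to 1.502 in sh-control, and that of CENPU to CENPQ was -2.02 to -1.61 in sh-circFTO and -0.85 to -0.62 in sh-control. The log2 ratio of CENPW to CENPT was 0.37 to 0.48 in sh-circFTO and 1.27 to 1.86 in sh-control, and that of CENPA to CENPC was 1.54 to 1.89 in sh-circFTO and 3.05 to 3.24 in sh-control; these pairs were picked for their difference, which is a description. CENPP did not pass the filter, with 189 counts over the sh-circFTO libraries and 296 over the sh-control libraries.

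Of the 14 outer kinetochore genes 13 fell and 1 rose, with a median of -1.06. All 4 subunits of the Ndc80 complex, the main microtubule-binding arm, fell: SPC24 (-1.54), NDC80 (-1.35), NUF2 (-1.10) and SPC25 (-1.03). NDC80 had 5.11, 6.26 and 5.69 FPKM in sh-circFTO and 14.3, 14.4 and 14.8 FPKM in sh-control. The Mis12 complex, the linker between the centromere and that arm, had values closer to 0. DSN1 (-0.73), NSL1 (-0.45) and PMF1 (-0.45) fell, and so did KNL1 (-0.61), the platform for the Bub proteins. MIS12 itself had 8.80, 9.36 and 8.75 FPKM in sh-circFTO and 7.68, 7.39 and 8.09 FPKM in sh-control. It was the 1 gene of the list that rose (0.22, SE 0.0833, edgeR adjusted p = 0.0218). MIS12 did not pass the test without sh-circFTO replicate 2 (edgeR adjusted p = 0.0995), sh-control replicate 1 (0.0545) or sh-control replicate 2 (0.0784), or with no expression filter (0.0732, where 16.8% of all genes fell and 17.2% rose). It overlaps DERL2 on the other strand. The share of all genes that rose was 32.9%, 32.7% and 32.8% without sh-circFTO replicates 1, 2 and 3 and 33.2%, 34.1% and 33.9% without sh-control replicates 1, 2 and 3.

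SKA1, a subunit of the Ska complex that tracks microtubule ends, had 3.31, 3.44 and 3.06 FPKM in sh-circFTO and 9.92, 9.03 and 9.94 FPKM in sh-control (-1.55, SE 0.102, edgeR adjusted p = 4.72e-14), and SKA3 fell too (-1.29). SKA2, the outer kinetochore RNA with the highest mean level per length over the 6 libraries (CENPF was higher in sh-control), had 17.0, 18.0 and 17.5 FPKM in sh-circFTO and 21.3, 20.5 and 22.05 FPKM in sh-control (-0.28, SE 0.0584, edgeR adjusted p = 1.09e-04). The log2 ratio of SKA1 to SKA2 was -2.52 to -2.36 in sh-circFTO and -1.18 to -1.10 in sh-control. The large transient kinetochore proteins also fell: CENPE, a kinesin that carries chromosomes to the spindle equator (-1.40), and CENPF, which builds up in G2 (-1.21).

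Of the 6 spindle checkpoint genes 5 were tested and all 5 fell, with a median of -1.06. BUB1B, which encodes the inhibitor subunit BUBR1, had 8.23, 7.70 and 7.31 FPKM in sh-circFTO and 19.8, 22.2 and 19.7 FPKM in sh-control (-1.41, SE 0.0652, edgeR adjusted p = 1.32e-17). TTK, the kinase MPS1 that starts the signal (-1.23), MAD2L1, whose protein changes shape to bind CDC20 (-1.06), and the kinase BUB1 (-0.94) fell as well. BUB3, a stable partner of BUB1 and BUBR1, had 21.8, 21.4 and 21.4 FPKM in sh-circFTO and 29.2, 28.2 and 30.4 FPKM in sh-control. Its groups did not overlap either, at a smaller change (-0.44, SE 0.0420, edgeR adjusted p = 1.57e-10). MAD1L1, the kinetochore anchor of MAD2, did not pass the filter, with 38 counts over the sh-circFTO libraries and 55 over the sh-control libraries.

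All 3 kinases of mitotic entry and centrosomes fell. PLK1, which acts from mitotic entry to cytokinesis, had 18.7, 19.1 and 18.4 FPKM in sh-circFTO and 52.8, 59.3 and 54.0 FPKM in sh-control. It had the smallest adjusted p of the 57 genes (-1.56, SE 0.0478, edgeR adjusted p = 6.89e-22). AURKA, the centrosomal and spindle kinase, had 33.4, 29.8 and 32.1 FPKM in sh-circFTO and 61.9, 70.4 and 69.7 FPKM in sh-control, a change of -1.08, and PLK4, which starts centriole duplication, fell (-1.26). PLK1 overlaps ERN2 on the other strand.

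The 4 genes of the chromosomal passenger complex, which corrects wrong attachments and guides cytokinesis, fell together, between -1.35 and -0.91. BIRC5, or survivin, had 11.9, 10.5 and 14.7 FPKM in sh-circFTO and 29.4, 30.6 and 34.5 FPKM in sh-control. CDCA8, or borealin, had 17.8, 17.6 and 18.2 FPKM in sh-circFTO and 34.9, 35.9 and 35.5 FPKM in sh-control. INCENP, the scaffold, had 9.48, 10.00 and 8.52 FPKM in sh-circFTO and 18.2, 17.6 and 17.0 FPKM in sh-control. AURKB, the catalytic subunit, fell (-1.13). No library of one group reached into the other for any of the 4, as was so in this direction for 35.7% of all tested genes. The edgeR adjusted p was between 2.90e-15 and 5.27e-13.

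**Figure D3:**
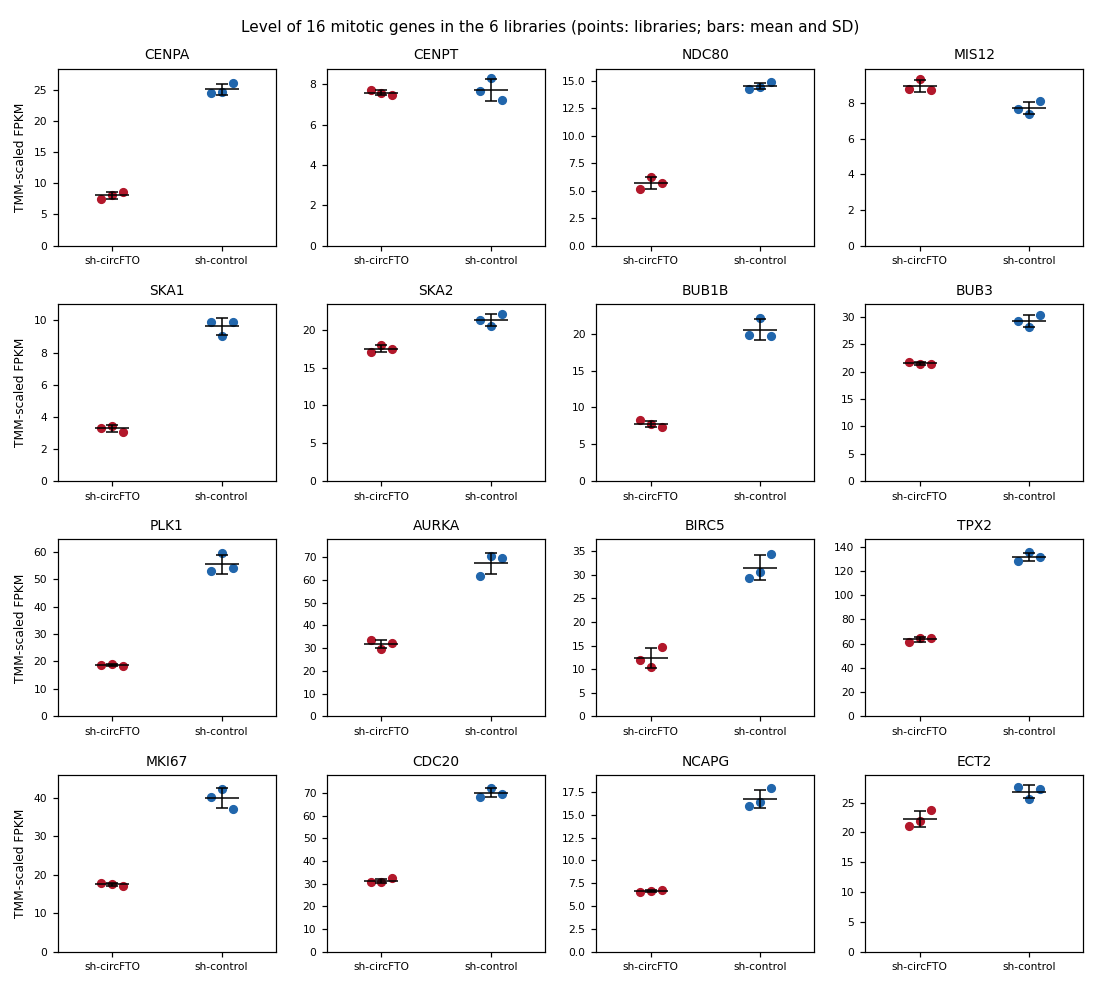
TMM-scaled FPKM (y axes, each starting at 0) of 16 mitotic genes in the sh-circFTO (left, red) and sh-control (right, blue) libraries; points are libraries and bars give the mean and SD over 3 libraries. The groups are far apart for CENPA, NDC80, SKA1 and PLK1, closer for SKA2, BUB3 and ECT2, overlapping for CENPT, and in the opposite order for MIS12.

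The spindle assembly genes included the most abundant RNA of the list. TPX2, which activates AURKA on spindle microtubules, had 61.2, 64.8 and 64.6 FPKM in sh-circFTO and 128, 135 and 131 FPKM in sh-control (-1.05, SE 0.0402, edgeR adjusted p = 1.54e-19). DLGAP5, a microtubule-binding spindle protein, had 9.05, 8.53 and 8.53 FPKM in sh-circFTO and 18.5, 16.8 and 19.7 FPKM in sh-control (-1.08). HMMR, another, had 12.6, 11.8 and 13.4 FPKM in sh-circFTO and 23.7, 23.2 and 23.2 FPKM in sh-control (-0.89). In all 3 genes the groups lay well apart (35.7% of all tested genes had sh-circFTO wholly below sh-control). NUSAP1, a microtubule-bundling protein, did not pass the filter, with 33, 14 and 22 counts in the sh-circFTO libraries and 61, 44 and 49 counts in the sh-control libraries; its span in the deposited table overlaps OIP5 on the other strand. TOP2A, the topoisomerase that untangles sister chromatids, had 59.2, 60.9 and 60.7 FPKM in sh-circFTO and 118, 110 and 116 FPKM in sh-control (-0.93). MKI67, the perichromosomal coat protein Ki-67, had 17.8, 17.6 and 17.2 FPKM in sh-circFTO and 40.4, 42.4 and 37.2 FPKM in sh-control (-1.19). FOXM1, a transcription factor of G2 and mitotic genes, fell (-1.14). FOXM1 is uncertain, since it overlaps RHNO1 and ITFG2 on the other strand.

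The 4 genes of the anaphase switch fell, with values of -1.50 to -0.93. CDC20, the APC/C activator and the target of the checkpoint, had 30.7, 30.8 and 32.3 FPKM in sh-circFTO and 68.3, 72.2 and 69.7 FPKM in sh-control (-1.16, SE 0.0507, edgeR adjusted p = 3.24e-18). UBE2C, the ubiquitin-conjugating enzyme that starts chains for the APC/C, had 31.7, 29.6 and 32.6 FPKM in sh-circFTO and 56.5, 60.6 and 61.7 FPKM in sh-control. ESPL1, or separase, had 1.85, 2.06 and 1.98 FPKM in sh-circFTO and 5.53, 6.04 and 5.07 FPKM in sh-control (-1.50), and its inhibitor PTTG1, or securin, fell (-1.12). The groups were apart for all 4 (35.7% of all tested genes had sh-circFTO wholly below sh-control).

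Condensin folds chromosomes into compact arms, and all 5 genes of its first form fell. NCAPG, a regulatory subunit, had 6.60, 6.67 and 6.80 FPKM in sh-circFTO and 15.96, 16.4 and 17.9 FPKM in sh-control (-1.32, SE 0.0641, edgeR adjusted p = 4.12e-17). The other regulatory subunits NCAPH (-0.95) and NCAPD2 (-0.82) also fell. NCAPD2 was the most abundant of them, at 23.9, 26.6 and 25.3 FPKM in sh-circFTO and 45.1, 43.9 and 45.5 FPKM in sh-control. The ATPase SMC4 fell (-0.94). SMC2, its partner in both condensins, had 6.96, 6.69 and 7.73 FPKM in sh-circFTO and 10.9, 10.3 and 11.8 FPKM in sh-control (-0.62).

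In cytokinesis PRC1, which bundles the central spindle, had 1.68, 1.98 and 2.07 FPKM in sh-circFTO and 4.74, 5.26 and 4.31 FPKM in sh-control (-1.32). PRC1 shares its strand and span with an unnamed gene that drew 610 counts over the 6 libraries, so its level is uncertain. ANLN, the anillin scaffold of the contractile ring, fell (-0.94). ECT2, the exchange factor that activates RhoA at the division plane, had 21.0, 21.9 and 23.7 FPKM in sh-circFTO and 27.6, 25.6 and 27.3 FPKM in sh-control. This was the smallest fall past the test on the list (-0.27, SE 0.0494, edgeR adjusted p = 1.78e-05), and limma on log2(FPKM + 1) did not call it (adjusted p = 0.0694).

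**Figure D4:**
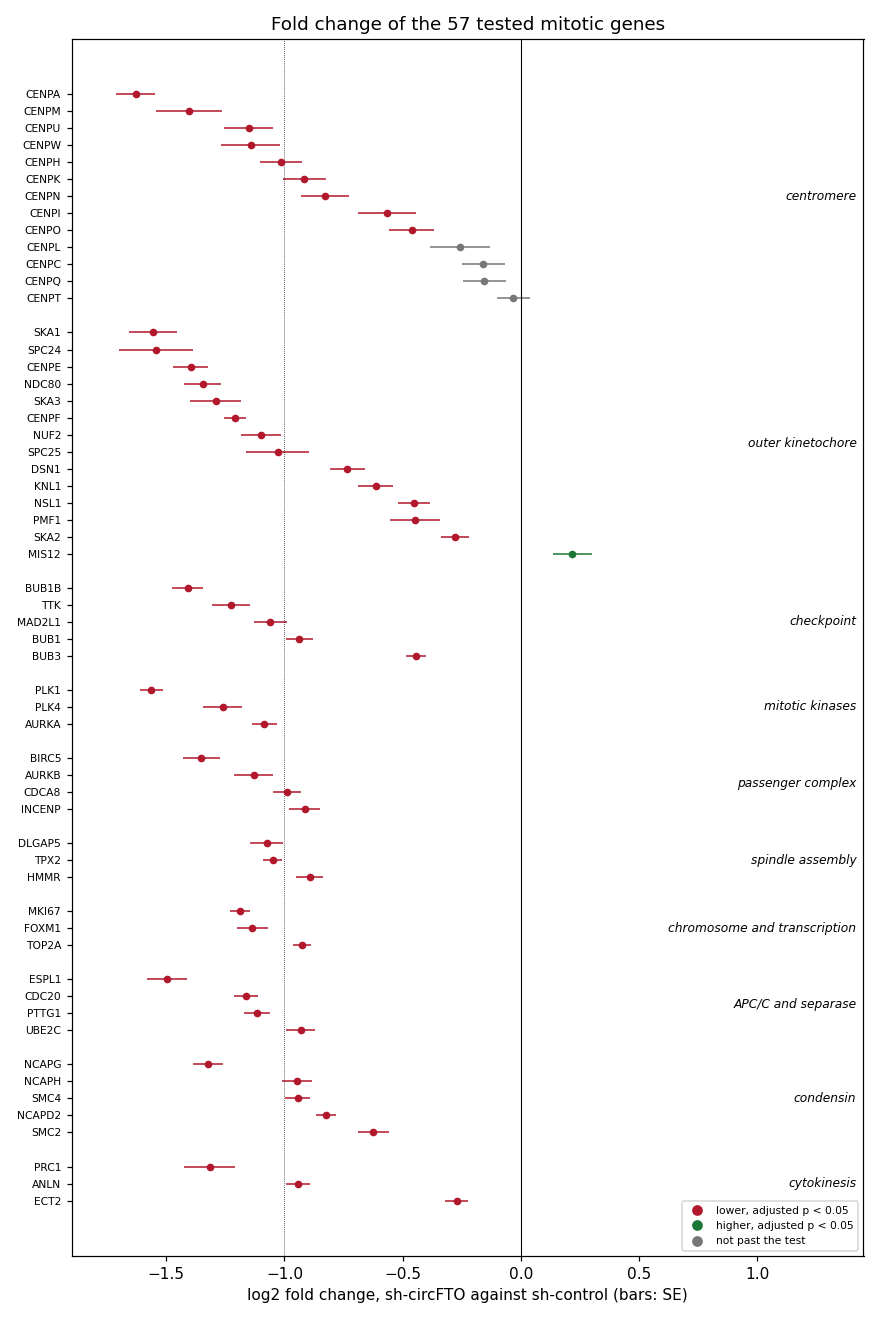
Log2 fold change of the 57 tested mitotic genes (x axis, sh-circFTO over sh-control, bars are SE), grouped by role; red points fell, the green point rose and grey points did not pass the test, and the dotted line marks -1. Values run from -1.63 for CENPA to 0.22 for MIS12, and the 4 grey points are all centromere genes.

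Other genes of the same processes were read from lists not used to choose the 60. These lists were drawn up with earlier results of these data known, so they are a description and no independent check. As background for these counts, 34.8% of all tested genes fell and 34.9% rose (27% and 44.3% with library totals only). All 12 mitotic kinesins fell, with a median of -0.90, among them KIF4A (-1.26), KIF2C (-1.19), KIF20A (-0.99) and KIF22 (-0.96). Of 18 other kinetochore genes 14 fell and 2 rose (median -0.51). HJURP, the chaperone that loads CENP-A, had 7.38, 6.60 and 5.56 FPKM in sh-circFTO and 15.9, 17.5 and 16.3 FPKM in sh-control (-1.35). MIS18A, which prepares the centromere for that loading (-1.43), KNTC1 (-0.82) and BOD1 (-0.82) fell, and ZW10 (0.42) and CLASP1 (0.19) rose. Of 16 cohesin genes 11 fell and 2 rose (median -0.36; 9 and 5 with library totals only). Sororin, CDCA5 (-1.52), and the subunits or regulators STAG2 (-1.10), RAD21 (-0.65) and PDS5A (-0.60) were among those that fell. All 3 genes of condensin II fell: NCAPG2 (-0.99), NCAPD3 (-0.48) and NCAPH2 (-0.27), of which NCAPH2 was not called with library totals only (adjusted p = 0.0874).

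Of 20 APC/C subunits and regulators 10 fell and 5 rose, with a median of -0.13 (8 and 7, and a median of 0.02, with library totals only). Over all tested genes 34.8% fell and 34.9% rose (27% and 44.3% with library totals only), and whether the APC/C counts differ from these shares was not tested. UBE2S, which extends the chains that UBE2C starts (-0.89), CDC23 (-0.85) and ANAPC16 (-0.77) fell, whereas ANAPC13 rose (0.62). UBE2D1, another ubiquitin-conjugating enzyme that works with the APC/C in vitro, had 23.8, 21.9 and 21.96 FPKM in sh-circFTO and 10.4, 9.73 and 11.7 FPKM in sh-control, a rise of 1.09. Of 29 replication genes 23 fell and 1 rose (median -0.58; 22 and 4 with library totals only), among them the licensing factor CDT1 (-2.30) and the helicase subunits MCM3 (-1.50), MCM2 (-0.98) and MCM4 (-0.81). TTTGAA near the start was found in 8 of 12 kinesin genes with a promoter window, 2 of 20 APC/C genes, 0 of 26 replication genes, 3 of 15 other kinetochore genes, 1 of 12 cohesin genes and 2 of 2 condensin II genes.

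Of 14 genes of the DREAM and MYB-MuvB complexes, which bind the CHR element, and of linked regulators 9 fell and 2 rose, with a median of -0.25 (7 and 2, and a median of -0.10, with library totals only). The shares over all tested genes were 34.8% lower and 34.9% higher (27% and 44.3% with library totals only). MYBL2, or B-MYB, the activator that joins the MuvB core in S and G2 phase, had 9.88, 9.23 and 8.77 FPKM in sh-circFTO and 50.9, 53.1 and 52.2 FPKM in sh-control. That change (-2.49, SE 0.0592, edgeR adjusted p = 2.46e-24) was further from 0 than that of any of the 57 mitotic genes. The 5 subunits of the MuvB core differed: LIN9 (-1.04) and LIN54 (-0.86) fell, RBBP4 rose (0.35), and LIN37 (0.25) and LIN52 (-0.02, or 0.13 with library totals only) did not pass the test. RBL1, or p107 (-0.76), and the activator E2F1 (-1.47) also fell. CDKN1A, the p21 inhibitor of cyclin-dependent kinases, had 142, 133 and 138 FPKM in sh-circFTO and 40.1, 43.2 and 41.0 FPKM in sh-control (1.73, SE 0.0434, edgeR adjusted p = 7.42e-24). Whether the changes in these regulators and in the mitotic genes are linked was not tested.

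**Figure D5:**
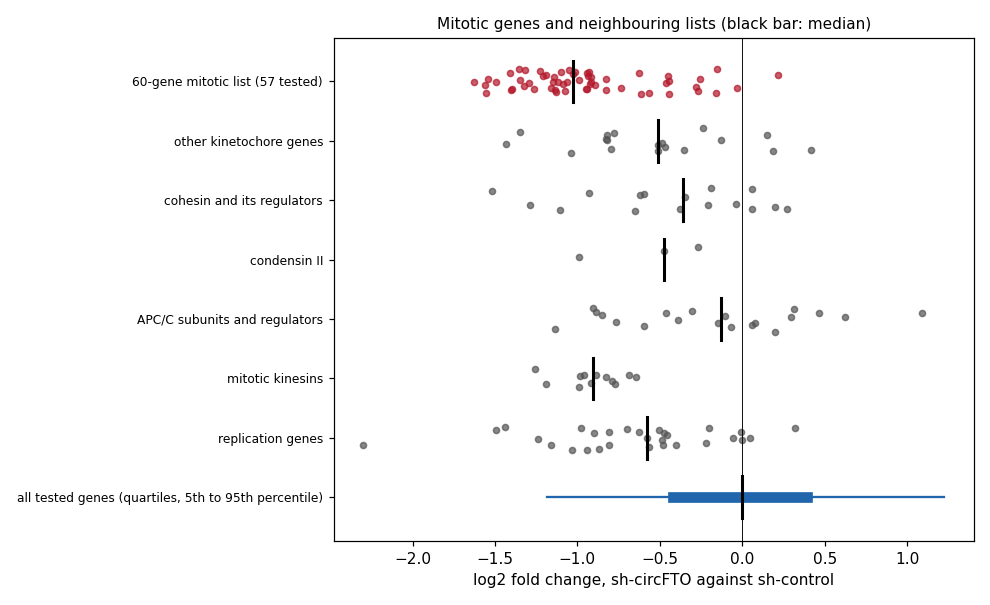
Log2 fold change (x axis, sh-circFTO over sh-control) of the tested genes of the mitotic list (top, red) and of 6 other lists (grey), each point a gene and each black bar a median; the bottom row gives all 12865 tested genes as quartiles (thick bar) and 5th to 95th percentile (thin bar). The mitotic list and the mitotic kinesins lie furthest left, with medians of -1.03 and -0.90, and the APC/C list spreads to both sides of 0.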

How the data were processed

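The deposited table gives read counts and FPKM for each gene in each library, both made by the authors, per the file headers. All 363630 deposited FPKM values equalled count over length and library total to within 0.006. No source used here gives the aligner, counter, strand setting or annotation. Builds named by the submitters' processing notes are GRCm38, mm10 and hg18; the identifiers are human, and 59 of the 60 genes matched GENCODE release 29 (GRCh38) to within 5000 bp.

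Counts were fitted for all 6 libraries with edgeR 4.0.16 in R 4.3.3 (TMM, quasi-likelihood test, Benjamini-Hochberg adjustment at 0.05). The fit was also run on simulated data in which few genes changed, equally often up and down. That run does not cover data in which most tested genes are called, as here. The SE is the log2 fold change over the square root of F. Of the 60 genes, 22 overlap another gene with at least 20 counts, so their counts are less certain. Libraries of a group were not copies (chi-square per degree of freedom 2.04 to 4.28, against 84.3 to 94.6 between groups).

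Named with library values were, in each role, the most abundant gene, those with the lowest and highest fold change and those not past the test. Every other tested gene of the 60 has its fold change, and each other list its 4 genes of smallest adjusted p, plus MYBL2 and CDKN1A; some genes and the counts that rest on them are not reported here. NDC80 (library values), ZW10, CLASP1, ANAPC13 and the MuvB subunits were chosen after their values were seen. The genes and lists were chosen with earlier results of these data known. Alternatives were other scalings and filters, DESeq2 1.42.0, limma 3.58.1 on log2(FPKM + 1) and log2(FPKM + 0.1), a replicate block, and each library left out.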

Additional observations from a re-analysis of the deposited data

How the results depend on the processing

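Of the 52 mitotic genes that fell, 50 stayed lower and past the threshold in all 14 alternatives, and 2 (CENPO and ECT2) were not called by limma on either pseudocount. Leaving out each library in turn gave 52 lower each time, 0 to 1 higher and a median of -1.06 to -0.98. The median was -0.88 with library totals only, -0.81 and -0.87 by limma on log2(FPKM + 1) and log2(FPKM + 0.1), and, in an alternative chosen after seeing the data, -1.06 over the 37 genes that overlap no other counted gene, of which 35 fell and 0 rose. With no filter 0 rose (MIS12 adjusted p = 0.0732 by edgeR). CENPT, never called, was at 0.11 with library totals, at 0.10 and 0.12 by limma, and at -0.077 to 0.021 over the fits that leave out a library (0.021 without sh-control replicate 2); the cause was not tested. Of all tested genes 34.9% fell and 35% rose with the block, and 33.1% fell with edgeR's own filter, 32.9% by DESeq2 and 25.9% and 25.8% by limma. With the replicate number as a block, 52 fell and 1 rose with a median of -1.03, and over all genes 4490 fell and 4509 rose. Same-numbered libraries showed little joint deviation (correlations 0.00064, -0.019 and 0.074, against -0.057 to 0.057 for differently numbered ones). With 3 libraries in a group, these values cannot decide whether same-numbered libraries shared a batch. Genes with few counts, such as MAD1L1, limit what this depth can show.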

Other observations

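Genes annotated to mitosis in the deposited table, but not on the list of 60, moved both ways. Of 52 other tested genes annotated to the kinetochore, 23 fell and 18 rose (44.2% lower, against 34.8% of all tested genes). Of 276 annotated to cell division, 130 fell and 85 rose (47.1% lower), and of 130 annotated to the midbody, the bridge left at the end of division, 47 fell and 57 rose (36.2% lower). Their medians were -0.07, -0.12 and 0.02. When no expression filter was applied, 2 of the 3 mitotic genes left out of the main test were called lower by edgeR: NUSAP1 (-1.24, SE 0.274, adjusted p = 2.98e-05) and CENPP (-0.74, SE 0.184, adjusted p = 2.48e-04). MAD1L1 was not (-0.63, SE 0.418, adjusted p = 0.285).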
